A study of Mus musculus with 1019 samples.

Results

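Regulatory T cells (Tregs) of the spleen are described here from 1 library, which held 36.8% of the 1019 single cells in the 3 libraries of the study. The cells were chosen by their label, that is by a spleen source and the shared start of their column names, and not by any measured value. The mice were B6 males, 20 months old. Per the labels' protocols, the spleen was dissociated mechanically, and live cells positive for CD4, CD25 and TCR beta were sorted and encapsulated singly by inDrops, a droplet method that counts the 3' ends of mRNA molecules by unique molecular identifiers (UMIs). All other cells were Tregs sorted by the same gate from epididymal visceral adipose tissue (VAT) of mice of that strain, sex and age, 330 in VAT library 2 and 314 in VAT library 3, and VAT alone was digested with collagenase and dispase. The labels name no animal, and among the spleen labels the source gives spleen whereas the tissue field names both tissues, and the replicate number differs between fields. Cells of 1 library are not replicates, so no p-value was computed. Intervals are exact 95% intervals and cover counting error only, and where the VAT libraries are set beside the spleen, tissue, dissociation and library cannot be told apart.

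Tregs are CD4 T cells that restrain other immune cells. The transcription factor Foxp3 maintains them, and the high-affinity interleukin-2 receptor, whose alpha chain CD25 is encoded by Il2ra, lets them survive on interleukin-2 made by other T cells. In lymphoid organs many are recirculating cells that carry homing receptors such as Ccr7, and a smaller share carries the activated, tissue-type program seen in organs such as fat.

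The spleen library held 573622 UMIs, with 819 to 4244 UMIs per cell (median 1423) and 501 to 1426 genes per cell (median 664). It shared 0 cell barcodes with VAT library 2 and 1 with VAT library 3. A UMI was seen for 11578 genes, but for most of them in few cells: 1657 genes were seen in at least 10% of the cells, 182 in at least 50%, and 2, Tpt1 and Rplp1, in every cell. The 20 genes with most UMIs, of which 14 encode ribosomal proteins, held 14.9% of all UMIs. To compare shares of cells at equal depth, each cell was thinned at random to 800 UMIs, and every cell was deep enough. A UMI level is given as CPM, UMIs per 1000000 UMIs of the library. Each UMI stands for 1 mRNA end, so levels were not divided by gene length.

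The sort label was checked against genes of the Treg lineage. Of the spleen cells, 339 (90.4%, interval 87.0 to 93.2) held a UMI of Foxp3, Il2ra, Izumo1r or Ikzf2, and 9 cells (2.40%, 1.10 to 4.51) held none of the 16 genes of the Treg core list. A cell held UMIs of a median of 3 and at most 9 of the 16. At 800 UMIs per cell the median was 2, and 31 cells (8.27%, 5.69 to 11.5) held none. In VAT libraries 2 and 3, 2.73% (1.25 to 5.11) and 4.78% (2.70 to 7.76) of thinned cells held none. The spleen interval did not meet that of VAT library 2 and overlapped that of VAT library 3. Izumo1r, the gene of folate receptor 4, was the most abundant of the 5 marker genes, with 686 UMIs and 1196 CPM (1108 to 1289). It was seen in 259 cells (69.1%), and 69 of them held 4 or more of its UMIs. After thinning, 51.5% of spleen cells (46.3 to 56.6) held an Izumo1r UMI, against 3.64% (1.89 to 6.27) and 6.69% (4.19 to 10.04) of the VAT cells. The intervals of spleen and VAT did not meet.

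Foxp3 itself was sparse in the same cells. It had 221 UMIs, 385 CPM (336 to 440), in 130 cells (34.7%). Of these cells 77 held a single Foxp3 UMI, 35 held 2 and 10 held 4 or more, with a highest count of 8. After thinning, 24.3% of spleen cells (20.0 to 28.9) held a Foxp3 UMI, and the VAT values of 24.2% (19.7 to 29.2) and 20.4% (16.1 to 25.3) lay within counting error of it. Il2ra, the gene of the sorted protein CD25, had 260 UMIs, 453 CPM (400 to 512), in 116 cells (30.9%), although every cell was sorted for the protein. After thinning it was seen in 20.3% of spleen cells (16.3 to 24.7), below 46.7% (41.2 to 52.2) and 40.8% (35.3 to 46.4) in VAT. Satb1, a chromatin organiser, had 72 UMIs in 48 cells (12.8%), and Ccr7, a receptor that guides T cells into lymphoid T zones, had 76 UMIs in 47 cells (12.5%). At 800 UMIs they were seen in 8.27% (5.69 to 11.5) and 6.13% (3.93 to 9.06) of cells.

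The table holds no cell type that should lack these genes. A gene of red blood cells, Hba-a2, had 73 UMIs in 52 spleen cells (13.9%), in 8.0% (5.46 to 11.2) after thinning, and 0 in both VAT libraries. The shares of Satb1 and Ccr7 are of that size, and the part of free RNA in them was not tested. Defining genes of other spleen cells were at 0: Cd79a, Ms4a1, Pax5 and Ebf1 of B cells, Lyz2, Tyrobp and Csf1r of myeloid cells, Cd8a and Klrb1c of CD8 T and NK cells, and all 4 platelet genes. A count of 0, with the limit set at 3 cells, allows a share of up to 0.80% of cells with a UMI. Of all 23725 genes in the table, 11578 had a spleen UMI. The numbers of B cell, myeloid, and CD8 T and NK cell genes seen are near that share and say little alone. Over whole lists, 8 of 14 B cell genes had a spleen UMI, together 0.0190% of UMIs (VAT 0.00378% and 0.00692%), as did 8 of 16 myeloid genes, 0.0474% (0.0245% and 0.0251%), 4 of 10 genes of CD8 T and NK cells, 0.0155% (0.00791% and 0.00966%), 5 of 6 erythroid genes, 0.0204% (0.000180% and 0.000182%), 1 of 4 plasma cell genes, 0.000697% (0% and 0.00128%), and 2 of 7 stromal and endothelial genes, 0.00523% (0.000180% and 0.000729%). Ctss, a lysosomal protease gene of antigen-presenting cells, made up most of the myeloid sum with 206 UMIs in 128 spleen cells. Over the B cell, plasma cell, myeloid, CD8 T and NK, and erythroid lists, 154 spleen cells held 2 or more UMIs. Leaving aside Ctss, Cst3 and Cd74, 57 cells did.

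The remaining core genes lay above, near or below their VAT levels. Ikzf2, which encodes the Treg transcription factor Helios, had 353 UMIs and 615 CPM (553 to 683) and was seen in 41.9% of spleen cells, at 0.694 and 0.875 times its VAT levels. The costimulatory receptor genes Tnfrsf4 (OX40) and Tnfrsf18 (GITR) had 195 and 166 UMIs, at 340 and 289 CPM. Both were lower than in VAT, Tnfrsf4 by 2.08-fold (1.75 to 2.49) and 1.99-fold (1.67 to 2.38). Ctla4, an inhibitory receptor, had 75 UMIs (131 CPM), and 9.07% of thinned spleen cells (6.36 to 12.4) showed it against 33.0% and 33.8% in VAT. Nt5e, the ectoenzyme CD73, had 99 UMIs in spleen against 12 and 7, an 8.0-fold (4.38 to 16.0) and 13.5-fold (6.33 to 34.5) higher level. Nrp1, a semaphorin coreceptor, had 169 UMIs in 109 cells, 2.16-fold (1.64 to 2.86) and 2.61-fold (1.94 to 3.55) above VAT. Lrrc32, which tethers latent TGF-beta to the cell, had 52 UMIs in 26 cells, against 2 and 1 UMIs in VAT. Tnfrsf9 (4-1BB) had 108 UMIs in spleen, near VAT library 2 with 96 and above VAT library 3 with 30.

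A gene was called different when it was at least 2-fold apart from the spleen in the same direction in both VAT libraries, among 4635 genes with 50 or more UMIs over the 3 libraries. By this rule 204 genes (4.4%) were higher and 478 (10.3%) lower in spleen. The minimum summed 1 spleen and 2 VAT libraries, so genes seen mainly in VAT met it more easily than genes seen mainly in spleen. The numbers called higher and lower are therefore not comparable with each other. When library totals excluded the ribosomal protein genes, 338 were higher and 383 lower. Of 13 eligible core genes 4 were higher (Izumo1r, Nt5e, Lrrc32, Nrp1) and 2 lower (Il2ra, Ctla4), with median log2 ratios of spleen to VAT of -0.30 and -0.14, beside -0.04 and 0.02 over all eligible genes.

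**Figure D1:**
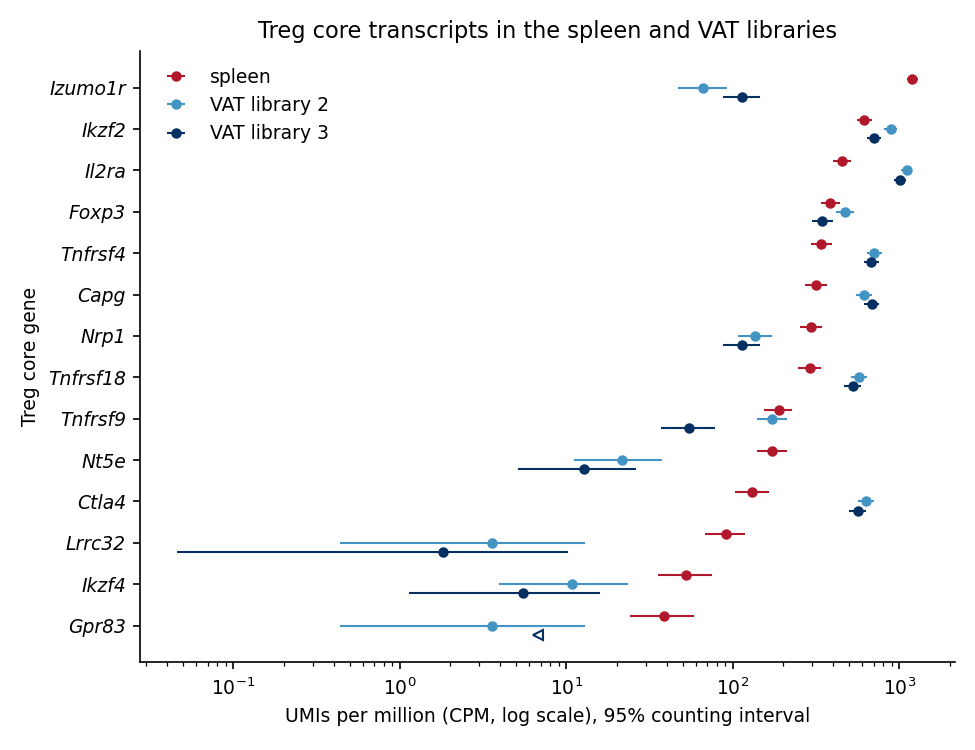
Levels of the 14 Treg core genes with 20 or more spleen UMIs in the spleen library (red) and VAT libraries 2 and 3 (light and dark blue), as CPM on a log axis, with bars for the 95% counting interval and an open triangle at the upper bound where no UMI was seen. Izumo1r stands at 1196 CPM in spleen, whereas Il2ra and Ctla4 are lower in spleen than in both VAT libraries.

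Of the genes of lymphoid homing and of resting T cells, 7 of 12 eligible members were called higher in spleen and 2 lower. Over all eligible genes 4.4% were called higher and 10.3% lower. Foxo1, a transcription factor of quiescent T cells, had 250 UMIs and 436 CPM (383 to 493) and was seen in 37.3% of cells. Cd27, a costimulatory receptor of resting T cells, had 220 UMIs in 128 cells. Bcl2, a survival gene, had 142 UMIs in 70 cells. Klf2, a regulator of T cell trafficking, and S1pr1, the receptor for egress from lymphoid organs, had 97 and 78 UMIs in 69 and 46 cells. Neither was called, Klf2 being at 0.847 and 1.09 times its VAT levels and S1pr1 at 1.76 and 2.57 times. The members called higher included Ccr7, Satb1, Bcl2, Foxp1, Foxo1 and Id3, and those called lower were Il7r and Ly6c1, with list medians of 1.36 and 1.77. At least 1 UMI of the list was held by 78.9% of thinned spleen cells, a median of 2 UMIs and at most 11 per cell.

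Genes of the T cell receptor and of CD4 were, as a list, seen in more thinned cells (98.7%) than the Treg core list (91.7%). Lck, the kinase bound to CD4, had 726 UMIs and 1266 CPM (1175 to 1361) in 55.2% of cells, Thy1 531 UMIs in 186 cells, Cd4 400 UMIs in 142 cells (37.9%), and Cd3d 283 UMIs in 169 cells. All 17 members had 20 or more UMIs, and 370 thinned cells (98.7%) held a UMI of the list. Of the 17, 1 was called higher, Cd3d, and 0 lower, with medians of 0.48 and 0.48. A single higher call of 17 is near the 4.4% over all eligible genes. Among cytokine receptor genes, the common gamma chain Il2rg had 363 UMIs in 182 cells and Il2rb 178 UMIs in 116 cells, so both other chains of the interleukin-2 receptor were found at levels comparable to Il2ra. Jak1, a kinase of interleukin-2 receptor signalling, had 479 UMIs in 214 cells. Of 22 eligible members of the cytokine receptor list 3 were higher (Il6ra, Il6st, Socs3) and 4 lower (Il10ra, Ifngr1, Socs2, Cish), with medians of 0.17 and 0.06. The shares over all eligible genes were 4.4% and 10.3%.

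The interferon response list was led by Ly6e with 1129 UMIs (1968 CPM) in 76.0% of cells and Samhd1 with 421 UMIs in 194 cells. The interferon-induced GTPase gene Ifi47 had 252 UMIs in 111 cells. In thinned cells Ifi47 was seen in 20.3% (16.3 to 24.7) of spleen cells against 2.73% and 4.78% of VAT cells. Of 18 eligible members 7 were higher, among them Irf9, Ifi47, Gbp2, Iigp1, Zbp1 and Trim30a, and 1 lower (Ly6a), with medians of 0.85 and 0.84. All eligible genes stood at 4.4% higher and 10.3% lower. The list's summed UMIs went the other way, at 0.583% in spleen against 0.705% and 0.686% in VAT. In the MHC class I list, B2m had 4604 UMIs in 372 cells, H2-D1 3357 and H2-K1 2515 UMIs, and 1 of 11 members was higher, Psmb9, and 0 lower. Reads of H2-D1, H2-K1 and other near-identical class I genes may have been exchanged in counting.

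Chemokine receptor and integrin genes other than the homing list were carried by Itgb2 with 327 UMIs in 120 cells and Selplg, a selectin ligand, with 239 UMIs in 138 cells. Of 17 eligible members 2 were higher, the follicle-homing receptor gene Cxcr5 (51 UMIs in 35 spleen cells, 0 in both VAT libraries) and the integrin gene Itgae (42 UMIs in 31 cells), and 9 were lower, among them Cxcr4 and Cd44. For this and the next lists the shares over all eligible genes were 4.4% higher and 10.3% lower. Members rare in spleen, such as Ccr1 and Ccr3, were eligible through their VAT UMIs. Ccr1, Ccr3 and Ccr10 were among the members at 0 in spleen. Cxcr5 and Itgae were each seen in fewer spleen cells than the red blood cell gene Hba-a2. The part of free RNA in them was not tested. Of 15 transcription factor genes, led by Ets1 with 607 UMIs in 213 cells and Bcl11b with 325 UMIs in 173 cells, 0 were higher and 1 lower, Id2. Of 11 heat shock genes, led by Hspa8 with 934 UMIs in 317 cells, 0 were higher and 0 lower, with medians of 0.24 and 0.36. Proliferation genes were near absent by their most specific members: H2afz, Tuba1b and Tubb5, which resting cells also express, held 402, 360 and 318 UMIs, whereas Mki67 and Top2a had 3 and 4. Of 14 genes that define other helper subsets 8 were at 0, among them Il2, Il4 and Il17a, and 6.13% of cells held any UMI of the list. A spleen UMI was seen for 11578 of all 23725 genes. The count of 8 of 14 at 0 is near that background and says little alone about other helper cells.

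Tissue Treg genes were at low level in spleen, and 47.5% of cells as deposited held a UMI of the list. The list held 789 UMIs, 0.138% of the spleen library (0.128 to 0.147), against 2.48% and 2.61% in VAT, and 232 thinned cells (61.9%) held none of it. Of 16 eligible members 13 were called lower in spleen and 0 higher, with medians of -4.68 and -4.71. Over all eligible genes 10.3% were called lower and 4.4% higher. Eligibility summed the 3 libraries, so members rare in spleen entered through their VAT UMIs, and their lower call followed from that. Of the 18 members of the list, 9 had 20 or more spleen UMIs and 1 had 0. Penk, the precursor of enkephalin peptides, was its most abundant member in spleen with 192 UMIs in 25 cells, against 142 and 59 UMIs in VAT. Gata3, a transcription factor, had 132 UMIs in 70 cells, the calcium-binding protein genes S100a6 and S100a4 had 103 UMIs in 53 cells and 99 UMIs in 41 cells, and the galectin gene Lgals1 had 68 UMIs in 39 cells. Klrg1, an inhibitory receptor of differentiated T cells, had 51 UMIs in 12 cells, and Areg, a growth factor of tissue repair, 20 UMIs in 6 cells. The 37 thinned cells with most UMIs of the list held 59.8% of its UMIs. The same share was 47.6% for the activation list and 43.1% for the immediate early list. It was 28.4% for the homing list and 26.1% for the core list. The parts of the list's few UMIs and of Penk in this were not tested.

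The activation list was also thin, with 837 UMIs (0.146%), and 197 thinned cells (52.5%) held none of it. Icos, a costimulatory receptor gene induced on activated T cells, had 226 UMIs in 85 cells, Nfkb1, a subunit of NF-kB, 125 UMIs in 74 cells, and Cd83, a surface protein of activated lymphocytes, 79 UMIs in 41 cells against 9 and 3 UMIs in VAT. Of 12 eligible members 1 was higher, Cd83, and 5 were lower (Cd69, Pdcd1, Irf4, Prdm1, Gzmb), with medians of -0.92 and -0.46. Beside them, 4.4% of all eligible genes were called higher and 10.3% lower.

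How evenly a gene's UMIs fell on cells was measured as the number of cells with a UMI over the number expected if its UMIs fell on cells by depth alone. Over the 1745 genes with 50 or more spleen UMIs the median ratio was 0.795, and 450 genes (25.8%) were at 0.7 or less. In cells thinned to 800 UMIs the share at 0.7 or less was 7.39%. UMIs of most genes thus sat in fewer cells than the expectation. Of the markers, Izumo1r was at 0.846, Foxp3 at 0.794, Satb1 at 0.738, Ccr7 at 0.689 and Il2ra at 0.632. Foxp3 therefore stood at the median of all genes. By list, 3 of 17 T cell receptor and CD4 genes and 1 of 9 MHC class I genes were at 0.7 or less, beside 25.8% of all genes. The counts were 6 of 12 core genes, 6 of 12 homing genes, 7 of 11 immediate early genes and 6 of 6 tissue Treg genes. A gene seen in nearly every cell, such as B2m, cannot have a low ratio. Among genes with 100 or more UMIs, 19.3% were at 0.7 or less. Lists of unlike level are therefore not comparable by these counts. The tissue Treg median was 0.535.

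Penk was the lowest of all 1745 genes. Its 192 UMIs lay in 25 cells where 148 were expected, a ratio of 0.169. Of these cells, 17 held 4 or more Penk UMIs and the highest held 29, and the 5 highest held 47.4% of all. The ratio was likewise low in VAT, at 0.123 in 14 cells and 0.0937 in 5 cells. Klrg1 came next, with 12 cells where 47.4 were expected (0.253) and a highest count of 12. In VAT, Klrg1 had 1921 and 1746 UMIs in 277 and 280 cells, with ratios of 0.846 and 0.900. At that level nearly every VAT cell was expected to hold a Klrg1 UMI, so its spleen and VAT ratios are not comparable. The other 10 of the 12 lowest genes were Parl, Sumo3, Prmt3, Ap1g1, Scd2, Dcaf7, Tmem126a, Rnf5, Rilpl2 and Pip4k2a, at 0.337 to 0.427, with highest counts of 7 to 10 UMIs in a cell and none of them a member of the gene lists. Rilpl2 and Dcaf7 were also uneven in VAT, at 0.380 and 0.404 and at 0.549 and 0.511. On GRCm38, Penk lies on chromosome 4 (4133531 to 4138819) and Klrg1 on chromosome 6 (122270596 to 122282882).

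**Figure D2:**
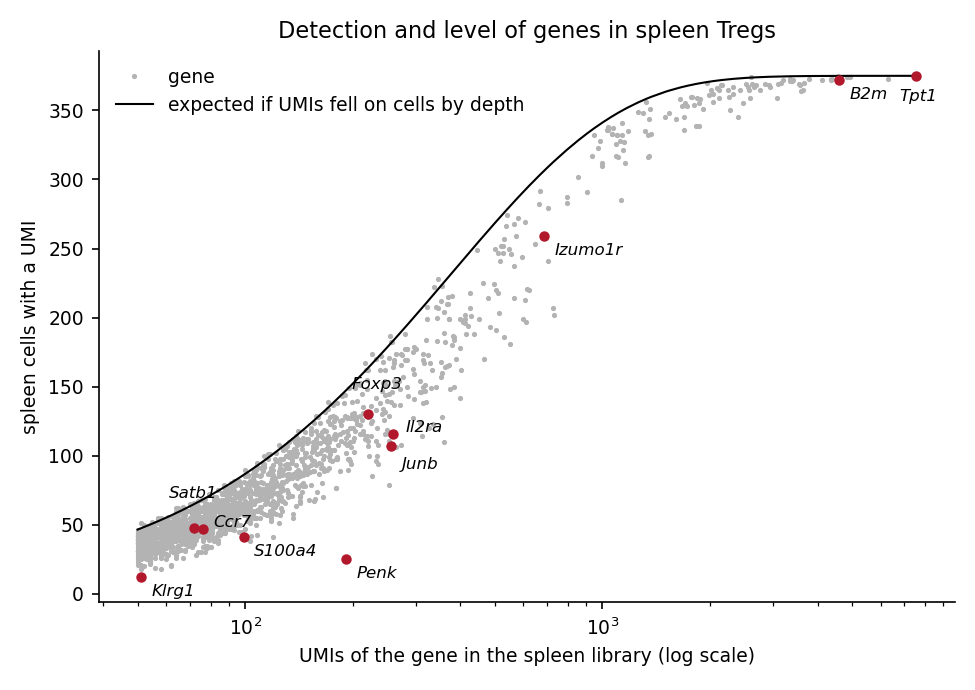
Number of spleen cells with a UMI against the gene's UMIs in the library (log axis) for the 1745 genes with 50 or more UMIs, with the black line giving the number expected if UMIs fell on cells by depth. Most genes lie under the line, Foxp3 and Izumo1r near the main band, and Penk (25 cells) and Klrg1 (12 cells) far under it.

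The cells with Penk or Klrg1 UMIs were described by their other genes at 800 UMIs. Cells with and without Penk had median depths of 1530 and 1419 UMIs. Of the 25 Penk cells, 14 (56.0%, 34.9 to 75.6) held a Cd4 UMI against 24.6% (20.2 to 29.4) of the other 350 cells, 11 (44.0%, 24.4 to 65.1) Foxp3 against 22.9% (18.6 to 27.6), and 8 (32.0%, 14.9 to 53.5) Cd83 against 5.71% (3.52 to 8.69). The intervals of Cd4 and Cd83 did not meet, and those of Foxp3 overlapped. None of the Penk cells held Bcl2 or S1pr1, where 15.1% and 8.57% of the other cells did. Cd27 and Il7r of the same homing list went the other way, at 32.0% and 20.0% of Penk cells against 21.7% and 9.14%. For each of these homing genes the intervals overlapped. Of the 12 Klrg1 cells, 8 held Tnfrsf18 (66.7%, 34.9 to 90.1, against 20.9%, 16.9 to 25.5), 8 held Ikzf2, 7 held Tnfrsf4 and 7 held Foxp3, and 0 held Bcl2. Izumo1r and Nrp1 of the core list went the other way, at 41.7% and 8.33% of Klrg1 cells against 51.8% and 18.5% of the others. Of the 12 Klrg1 cells and 25 Penk cells, 5 held both genes. The genes described in these cells were picked out of the lists for their difference, in either direction, and 12 and 25 cells of 1 library set wide limits.

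Genes detected together were counted in the thinned cells, since cells of equal depth do not share UMIs merely by being deep. For each pair the number of cells with both genes was divided by the number expected from the 2 shares. Over 802800 pairs with 5 or more expected cells the median ratio was 1.0, and 29501 (3.67%) were at 1.5 or more. The markers were found together about as often as their shares predict. Foxp3 and Il2ra shared 18 cells where 18.4 were expected (0.976), Foxp3 and Izumo1r 49 where 46.8 were expected (1.05), and Il2ra and Izumo1r 35 where 39.1 were expected (0.895). A cell with a Foxp3 UMI held Il2ra in 19.8% of cases and a cell without one in 20.4%. Within the core list 3 of 52 pairs were at 1.5 or more, a share near the background. Of these, Tnfrsf9 and Tnfrsf4, both TNF receptor genes of activated Tregs, shared 16 cells where 8.14 were expected (1.97), and the ratio was 2.27 and 1.78 in the VAT libraries. Among the 5 genes with the highest ratio to Foxp3 was Ccl5, a chemokine gene, with 13 shared cells where 5.34 were expected. Ccl5 belongs to the list of CD8 T and NK cell markers, and the part of such cells in this pair was not tested.

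Immediate early genes, which respond to receptor signals or stress within minutes, were at low level in spleen, and some of their pairs shared more cells than their shares predict. Nfkbia, the inhibitor of NF-kB, had 309 UMIs in 146 cells, the AP-1 genes Junb and Jund 256 UMIs in 107 cells and 232 UMIs in 142 cells, and the phosphatase gene Dusp1 104 UMIs in 42 cells. The list made up 0.28% (0.266 to 0.294) of the UMIs, where it made up 4.14% and 3.83% in VAT. Of its 22 eligible members 21 were called lower in spleen, beside 10.3% of all eligible genes. Members rare in spleen were eligible through their VAT UMIs, so their lower call followed from that. Of the 23 members of the list, 14 had 20 or more spleen UMIs. Fos had 16 spleen UMIs, and Fosb and Ier3 had 0. In thinned cells, 108 cells held no UMI of the list, 13 held 10 or more, and the highest held 26. The 37 cells with most held 43.1% of the list's UMIs.

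Of 22 pairs within this list 11 (50%) were at 1.5 or more, with a median ratio of 1.47, and others were below 1, such as Btg2 with Jund at 0.565. The pairs share genes, 7 of the 11 holding Nfkbia, and so are not independent. Junb and Dusp1 were the highest of the 6068 pairs of list genes of different families, with 21 shared cells where 7.30 were expected (2.88). Dusp1 was seen in 27.6% of cells with a Junb UMI and in 5.02% of cells without. Junb was also found with Cd83 in 16 cells where 5.67 were expected (2.82), with the chemokine receptor gene Cxcr4 in 12 where 5.47 were expected (2.19), and with Ctla4 in 15 where 6.89 were expected (2.18). Nfkbia and Tnfaip3, 2 inhibitors of NF-kB signalling, shared 14 cells where 6.16 were expected (2.27). In VAT, Junb was seen in 94.5% and 91.1% of thinned cells, so the ratio of a pair with Junb can hardly exceed 1 there, and the spleen and VAT ratios are not comparable. Without the 57 cells that held 2 or more UMIs of other cell types, leaving aside Ctss, Cst3 and Cd74, 6 of 18 pairs were at 1.5 or more, and without the 154 cells that held such UMIs with these 3 genes counted, 2 of 7.

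**Figure D3:**
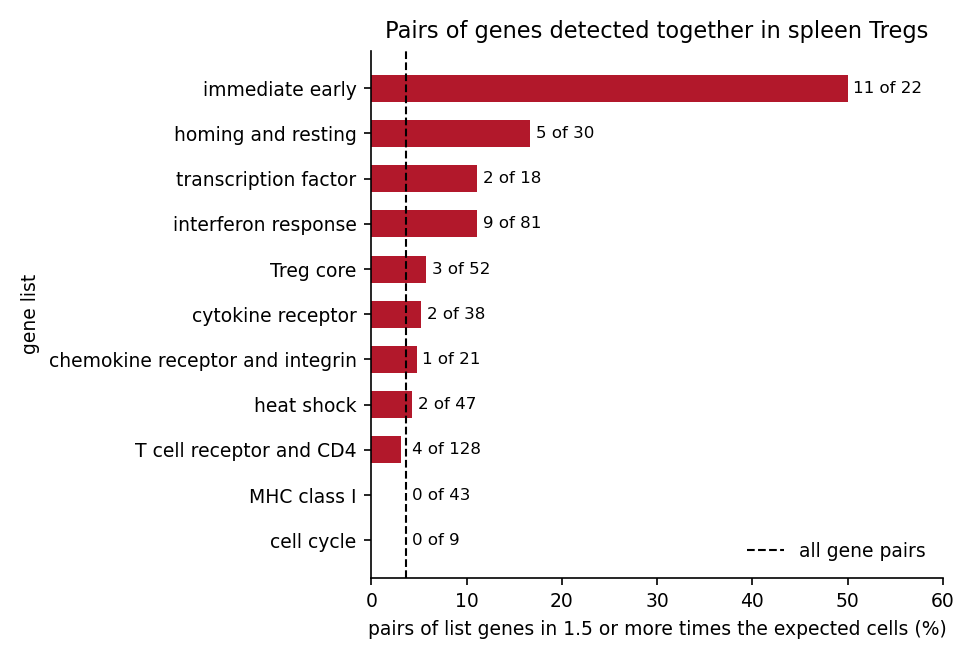
Share of gene pairs within each list that were found together in 1.5 or more times the expected number of thinned spleen cells (bars, with counts; lists with 5 or more pairs), and the same over all 802800 pairs (dashed line, 3.67%). The immediate early list stands at 50%, and MHC class I and cell cycle at 0.

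The promoters of Nfkbia, Tnfaip3 and Dusp1, and of Cish, whose pairing with Il2ra is described next, are shown because each held a motif searched for. Their partners Junb and Il2ra held none of the motifs in this window and are not shown. Each sequence runs from 170 bases before the start of the gene to 30 after it, read along the gene, from RefSeq on build GRCm38.p6. Capitals mark a short motif found by letter search on both strands. For Nfkbia and Tnfaip3 the motif is the kappaB form bound by NF-kB, searched as 3 G, any 2 bases, 3 T and 2 C, which occurs in 1.63% of the 32851 promoters of 300 bases in the table. Nfkbia lies at chr12:55492618-55492817 on the minus strand and Tnfaip3 at chr10:19015381-19015580 on the minus strand, and Tnfaip3 has a second start in the table. For Dusp1 at chr17:26508443-26508642, minus strand, it is TGACGTCA, the cyclic AMP response element, in 1.79% of promoters. For Cish at chr9:107296489-107296688, plus strand, it is TTCNNNGAA, the form bound by STAT proteins, in 8.30% of promoters.
Nfkbia: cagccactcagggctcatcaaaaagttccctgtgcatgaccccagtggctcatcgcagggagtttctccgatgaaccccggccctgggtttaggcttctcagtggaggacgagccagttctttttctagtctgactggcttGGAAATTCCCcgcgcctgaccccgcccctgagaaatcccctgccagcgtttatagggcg
Tnfaip3: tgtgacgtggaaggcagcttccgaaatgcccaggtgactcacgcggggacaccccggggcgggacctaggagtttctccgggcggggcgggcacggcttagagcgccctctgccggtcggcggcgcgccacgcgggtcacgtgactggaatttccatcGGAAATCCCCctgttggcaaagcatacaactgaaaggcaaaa
Dusp1: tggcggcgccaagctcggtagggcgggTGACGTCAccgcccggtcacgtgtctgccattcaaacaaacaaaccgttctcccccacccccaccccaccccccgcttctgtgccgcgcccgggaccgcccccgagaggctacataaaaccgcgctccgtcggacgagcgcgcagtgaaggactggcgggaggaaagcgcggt
Cish: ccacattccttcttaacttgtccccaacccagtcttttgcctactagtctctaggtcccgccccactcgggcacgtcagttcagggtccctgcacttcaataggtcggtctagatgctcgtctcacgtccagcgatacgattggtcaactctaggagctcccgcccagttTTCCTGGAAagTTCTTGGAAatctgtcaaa
Of the 9 immediate early genes in a pair at 1.5 or more, 2 held the NF-kB form in 300 bases, these 2, and 1 the cyclic AMP response element, Dusp1. A match describes letters only, and binding was not measured.

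Cish, a feedback inhibitor of interleukin-2 signalling, had the highest ratio to Il2ra of all genes paired with it. Cish had 69 UMIs in 45 cells. The genes shared 14 thinned cells where 6.08 were expected (2.30), and Cish was seen in 18.4% of cells with an Il2ra UMI and 5.35% of cells without. The ratio of this pair was 1.58 before thinning and 1.65 with another random draw of UMIs. In VAT the ratio was 0.869 and 1.02. Igtp, an interferon-induced GTPase gene, shared 22 cells with Il2ra where 10.7 were expected (2.05), but 1.39 times the expected number before thinning. Cd4 and Penk shared 13 where 5.87 were expected (2.22). The 12 highest list pairs were chosen by their ratios, and 5 of them were below 1.5 in at least 1 other way of counting the cells: Lcp2 with Icos, Ctla4 with Junb, Hspa5 with Ifnar1, Cd28 with Irgm1, and Igtp with Il2ra.

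The pairs of homing genes depended on how cells were counted. Of 30 pairs 5 were at 1.5 or more, among them Id3 with Cd27 (11 cells where 5.82 were expected, 1.89), Foxo1 with Ccr7 (10 where 6.07 were expected, 1.65) and Foxo1 with S1pr1 (13 where 7.92 were expected, 1.64). The count was 3 of 29 with another random draw of UMIs, 1 of 13 without the 154 cells with UMIs of other cell types, 0 of 6 at 500 UMIs and 0 of 9 with 10 or more expected cells. In the interferon list 9 of 81 pairs were at 1.5 or more, but 4 of 78 in the other draw. Over all pairs the share was 3.67%, with 3.61% in the other draw and 2.90% without the 154 cells. It was 3.34% at 500 UMIs and 0.547% with 10 or more expected cells. The interferon count of the other draw is near its background. At such background shares 0 of 6 and 0 of 9 homing pairs are too few to show a loss. Satb1 and Ccr7 shared 3 cells where 1.90 were expected. Of the 6068 list pairs, Il10rb with Lat, an adaptor of T cell receptor signalling, was among the 6 lowest and was chosen for that. Il10rb was seen in 22 thinned cells and Lat in 102, 5.98 cells were expected with both and 0 were found, and the ratio as deposited was 0.427.

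Sums of whole lists were compared over the thinned cells, given as Spearman's rho without a test. All points come from 1 library at one depth, and UMIs of 1 list leave fewer for the others. The tissue Treg sum went with the activation sum (rho 0.34) and against the homing sum (-0.25). Both relations were near 0 in VAT (0.03 and 0.03, -0.01 and 0.06). Counted over 500 UMIs outside ribosomal protein genes they were 0.30 and -0.29. Of the spleen cells, 199 (53.1%, 47.9 to 58.2) held homing but no tissue Treg UMIs, 97 (25.9%) both, 46 (12.3%) tissue Treg UMIs alone and 33 (8.80%) neither. The Treg core sum went weakly with the activation sum (0.22) and weakly against the homing sum (-0.12). In sparse counts such weak values are no finding.

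**Figure D4:**
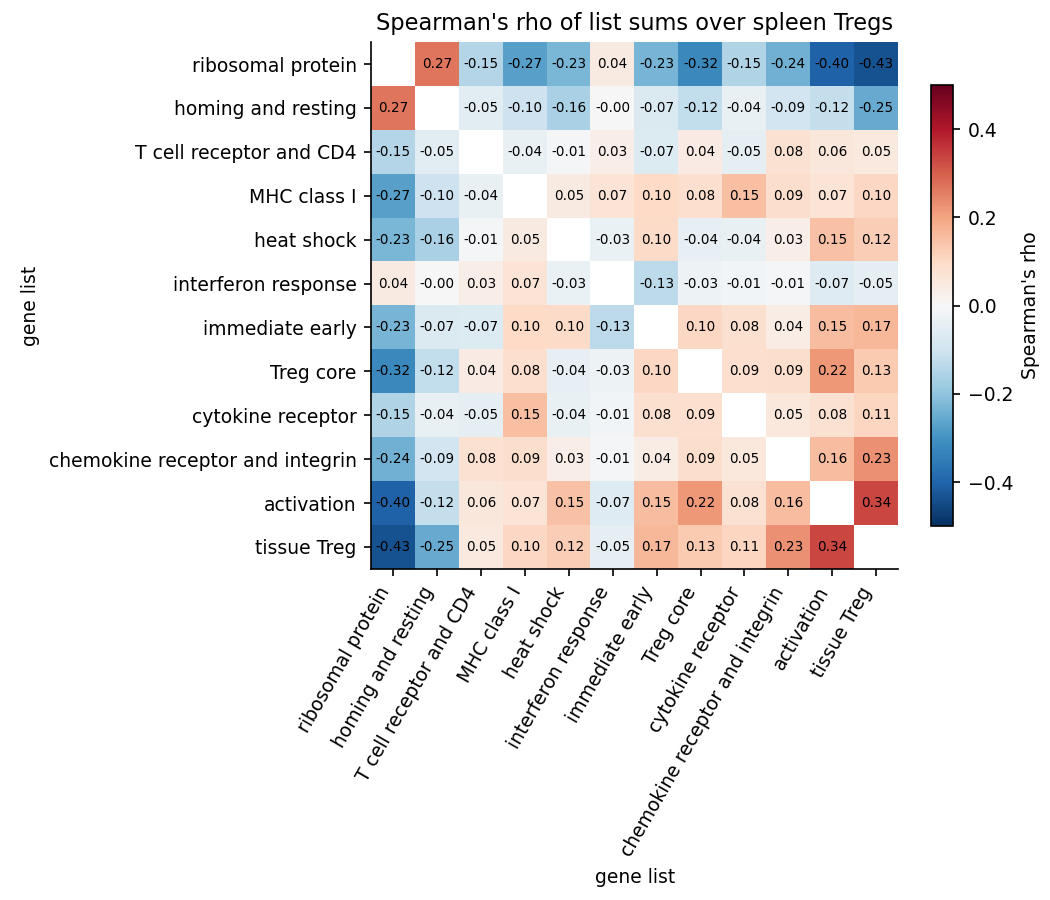
Spearman's rho between the UMI sums of 12 gene lists over the spleen cells thinned to 800 UMIs (colour and number; both axes list the same gene lists). The tissue Treg list is at 0.34 with the activation list, -0.25 with the homing list and -0.43 with ribosomal protein genes.

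Ribosomal protein genes made up 30.1% of the UMIs, where they made up 17.7% and 19.7% in VAT, and ranged from 14.2% to 45.6% over single spleen cells (median 29.0%). Their sum at 800 UMIs went with the cell's depth as deposited (rho 0.43). It was -0.43 with the tissue Treg sum, -0.40 with activation and -0.32 with the core list, and 0.27 with the homing sum. In VAT the value was -0.29 and -0.24 with the tissue Treg sum, -0.20 and -0.10 with the core list, -0.12 and -0.10 with activation, and -0.04 and -0.13 with homing. Cells with 0 tissue Treg UMIs had a median ribosomal share of 30.9% (232 cells) and cells with 3 or more of 22.6% (52 cells), at median depths of 1432 and 1403 UMIs. Cells with 0 homing UMIs had a median of 26.5% (79 cells) and cells with 3 or more of 32.0% (141 cells). The ranges of single cells overlapped widely in both splits. The part of the fixed total of 800 UMIs in these relations was not tested.

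**Figure D5:**
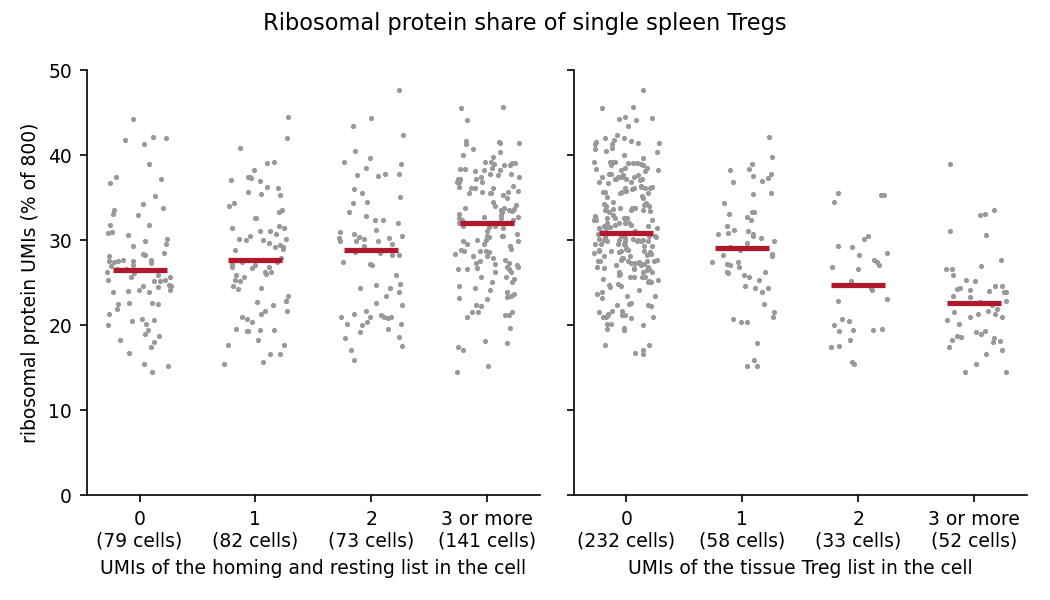
Ribosomal protein UMIs as a percentage of the 800 UMIs of each thinned spleen cell (grey points; red bars are medians), by the cell's UMIs of the homing list (left) and the tissue Treg list (right). The median goes from 26.5% to 32.0% across the homing classes and from 30.9% to 22.6% across the tissue Treg classes, with overlapping points.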

How the data were processed

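Libraries were made by inDrops, per the labels' protocols. The submitters' processing notes name TopHat2, SAMtools and mm10, and for annotation, cell filter and doublets the steps are not given in the sources used here. Deposited values are whole UMI counts, 23725 gene symbols by 1019 cells, not normalized, and 22822 symbols were found in GENCODE M21, which gave coordinates. No doublet caller was run.

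UMIs were summed per library for CPM. A total of 21 gene lists was used, and the cells, lists and rules were chosen with earlier results of these data known. Members with 20 or more spleen UMIs were eligible to be named: the markers, core genes, up to 6 leading members of each other list, the leading 20 genes, the 12 least even genes, the 12 highest and 6 lowest list pairs, and the 5 highest partners of each marker. Any further gene was picked with its values in view. Some list members are not reported here. Cells were thinned with seed 0. Fold calls add 0.5 to each count. Intervals are Poisson for CPM, Clopper-Pearson for shares and conditional binomial for ratios, at 95%. A floor of 3 counts was 5.23 CPM in spleen. The calculations were tested on simulated data. They used Python 3.11.15, numpy 2.4.6, pandas 2.3.3 and scipy 1.17.1, and edgeR 4.0.16 gave TMM factors for one alternative.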

Additional observations from a re-analysis of the deposited data

How the results depend on the processing

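A total of 304 alternative values was computed for 65 results, and 117 of 156 for the main results stayed within their interval, within 1.5 times a count or within 0.1 of a rho. Without thinning, Foxp3, Il2ra, Izumo1r, Satb1 and Ccr7 were seen in 34.7%, 30.9%, 69.1%, 12.8% and 12.5% of cells, and at 500 UMIs Foxp3, Izumo1r and Satb1 in 16.8%, 40.8% and 4.27%. With ribosomal protein genes out of the total the 5 markers were at 551, 648, 1710, 179 and 189 CPM, and 338 genes were 2-fold higher in spleen. Ribosomal genes held 29.3% as a mean of cells, 29.9% without the 5% of cells with most UMIs and 30.9% without the 154 cells with 2 or more UMIs of other cell types. Without those cells the core, tissue Treg and immediate early lists held 0.432%, 0.107% and 0.230%. Genes called higher numbered 479 and lower 783 at a minimum of 20 UMIs, 85 and 298 at 100 UMIs, and higher ones 343 to 409 when either VAT library was left out. Pairs at 1.5 or more were 0.547% with 10 or more expected cells. Immediate early pairs were at 28.6% without the 154 cells. Homing pairs were at 0% of 6 pairs at 500 UMIs and of 9 pairs with 10 expected cells. They were at 10% without the deepest cells, 7.69% without the 154 cells and 10.3% in another draw. Interferon pairs were at 6.99% without thinning, 5.71% without the 154 cells, 4.84% without 57 and 5.13% in another draw. Genes at 0.7 or less of the expected cells were 7.39% in thinned cells. The tissue Treg and immediate early sums were at a rho of 0.0547 outside ribosomal genes, 0.17 as reported and 0.07 to 0.14 in the other settings. The cause was not tested. Hspa5 with Ifnar1 was at 0.995 without thinning and 0.794 at 500 UMIs, and Cd28 with Irgm1 at 0.849 without the deepest cells, on the other side of 1. Alternatives with the 57 cells, another draw and counts outside ribosomal genes were chosen after seeing the data. No paired analysis was possible because the spleen is 1 library and no animal is named.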
